A study of Mus musculus with 6 samples.

Results

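The nuclear genes of oxidative phosphorylation were followed, complex by complex, in dental epithelial organoids (DEOs) grown in 4 media. Members were selected on their names and on their level: gene symbols that begin with Ndufa, Ndufb, Ndufc, Ndufs, Ndufv, Sdh, Uqcr, Cox4, Cox5, Cox6, Cox7, Cox8 or Atp5, that lie on autosomes, that carry no pseudogene suffix and that reach a mean FPKM of at least 1 over the 4 libraries. This gave 88 members of 47360 gene symbols in the table, and of 12875 symbols with a mean FPKM of at least 1. Of 99 symbols with these prefixes, 4 carried a pseudogene suffix, 3 were X-linked and 4 fell below the limit on the mean. The members comprise 41 genes of complex I, 8 of complex II, 8 of complex III, 14 of complex IV and 17 of complex V, and 73 of them encode structural subunits, whereas 15 encode assembly factors, paralogs or other proteins.

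DEOs were grown for 14 days in Matrigel from adult dental epithelial stem cells of incisor apical buds of wild-type, 9-week-old female C57BL/6J mice. All 4 media held Wnt3a, R-spondin1, EGF at 100 µg/ml and Noggin at 200 µg/ml, which is the +N medium. The +ND medium also held DBZ (dibenzazepine), a γ-secretase inhibitor that keeps Notch receptors from being activated, the +NF medium held FGF10 at 100 µg/ml, and the +NFD medium held the pair of agents. The dose of DBZ is given as 10 µM in the table of media and as 10 mM in the methods text. Each medium had 1 RNA-seq library, so differences between media could not be set against a spread between replicates, and p-values were not computed. The +NJ and +NFJ media, which contain Jagged1, were not analysed here.

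Oxidative phosphorylation takes electrons from NADH at complex I and from succinate at complex II, passes them through ubiquinone, complex III and cytochrome c to oxygen at complex IV, and uses the proton gradient built on the way to drive ATP synthesis at complex V. Most subunits are encoded in the nucleus, translated in the cytosol and imported, and they join a small set of subunits encoded by mitochondrial DNA. Complex II has nuclear subunits only. Several complex IV and complex V subunits have isoforms from separate genes that are used in different tissues or oxygen conditions. The genes of mitochondrial DNA and the gene Cox4i1 were not analysed here.

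The values are FPKM, that is, the fragments mapped to a gene divided by its transcript length and by the size of the library, as the authors estimated them. Where 4 values of a gene follow each other, they stand in the order +N, +ND, +NF, +NFD. Ratios are log2((FPKM + 1)/(FPKM + 1)) and understate the differences of genes with low values. The number of genes at an FPKM of at least 1 ranged from 12529 to 12959 per library. Low values of genes with 1 annotated transcript fell on weak steps of a single fragment, and these steps put the depth relative to +N at 0.749 for +ND, 0.994 for +NF and 0.98 for +NFD. Epithelial markers were present in all libraries, with a summed FPKM over 6 genes of 19803, 11036, 15671 and 13145. Of these 6 genes, 4 were lower and 2 higher in +ND than in +N, and the same counts held for +NFD against +N. The summed FPKM of 8 fibroblast markers was 153, 129, 94.6 and 378, that of 7 macrophage markers was 606, 496, 433 and 372, and 4 endothelial markers summed to between 0.146 and 0.326. Lyz2 made up most of the macrophage sum, at 528, 408, 373 and 288. Of the 6 macrophage markers at a mean FPKM of at least 1, 3 were higher and 3 lower in +NFD than in +N. In bulk RNA, fewer cells of a type and less RNA per cell cannot be told apart.

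The level chose the members, so their levels are a description. The median FPKM over the 88 members was 114, 119, 119 and 128. Their sum made up 1.84%, 2.21%, 2.00% and 2.24% of all FPKM in the respective libraries. The complexes stood in nearly the same order in each library. Complex IV had the highest median in +N (282), +ND (305.5) and +NFD (306), with complex V second in those libraries (239, 305.1 and 279), whereas in +NF complex V (269.7) stood level with complex IV (268). Complex III followed with 208 to 232, complex I with 83.6 to 93.3 and complex II with 41.0 to 43.9. Without assembly factors, paralogs and other proteins, the median of complex II was 68.5 to 85.1 and that of complex I was 92.7 to 104, so these complexes remained the lowest. On the same basis the medians of complexes IV and V were 266.4 and 262.8 in +N and 305.5 and 305.3 in +ND. They were 268.3 and 273.6 in +NF and 301 and 316.3 in +NFD, so complex V then stood above complex IV in +NFD.

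The highest member of complex I was Ndufa7, an accessory subunit, at 222 to 279 FPKM. Among structural subunits of complex I, the lowest was Ndufa11, at 18.7 to 25.1. In complex III the lowest member was Uqcrfs1, the Rieske iron-sulfur protein, at 83.4, 119, 89.2 and 97.5. Its highest member by mean was Uqcr11, at 430.0, 406, 395 and 468. The highest member of complex V was Atp5b, the catalytic beta subunit, at 444, 601, 473 and 533. In complex II, Sdhd, a membrane anchor, had the highest mean, at 80.6, 115, 101 and 104. In complex IV the highest mean was that of Cox8a (566), just above Ndufa4l2 (564), and the lowest that of Cox4i2 (5.64). Members of complexes I and IV thus differed in FPKM by an order of magnitude or more, while the order of the members hardly differed between media: Spearman's rho of the 88 levels was between 0.971 and 0.994 over the 6 pairs of libraries, a correlation across genes that share these libraries.

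Near the limit, the lowest members were Sdhaf3 at a mean FPKM of 2.62, Sdhaf1 at 2.79 and Atp5s at 4.51. The genes left out were Cox6a2, the muscle isoform of Cox6a, at a mean of 0.132, and Cox7b2, Cox8b and Cox8c, which are listed at 0 in all 4 libraries. The gap between the lowest member and Cox6a2 means that no gene of the family lay close to the limit of 1. Of 6 skeletal muscle marker genes, 5 are in the table and sum to 0.107 to 0.302 FPKM.

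**Figure D1:**
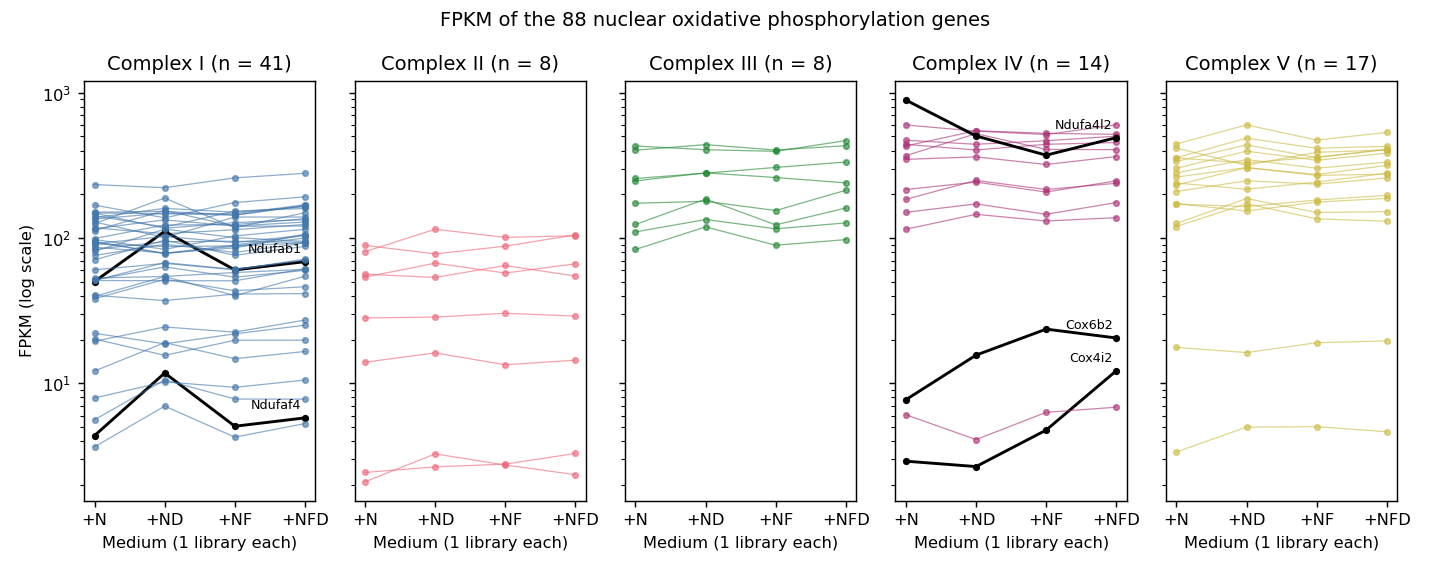
FPKM on a log axis of each of the 88 members in the 4 media, 1 library each, in a panel for each complex. Lines join the values of 1 gene, and the 5 members that reached a 2-fold ratio in any comparison are drawn in black. Most lines are nearly flat, and Cox4i2 and Ndufa4l2 cross other members of complex IV.

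Members varied little among the media. For 76 of the 88 members (86.4%) the highest of the 4 values was less than 1.5 times the lowest, against 47.2% of all genes. The median ratio of highest to lowest was 1.30 for members and 1.53 for all genes. High genes varied less in general: among genes with a mean FPKM of at least 50 the share was 59.8% with a median of 1.41, and among the 68 members at that level it was 94.1% with a median of 1.26. In complex V all 17 members stayed under 1.5-fold, in complex I 35 of 41, in complexes II and III 7 of 8 each, and in complex IV 10 of 14. The most even member was Sdhaf4, an assembly factor of complex II, at 28.2, 28.6, 30.4 and 29.0. The widest was Cox4i2, with a ratio of 4.56.

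The highest of the 4 values lay in +NFD for 45 members and in +ND for 33, against 32.6% and 30.4% of all genes. It lay in +N for 5 members and in +NF for 5, against 15.9% and 21.1% of all genes. The lowest value lay in +N for 47 members and in +ND for 26, with 14 for +NF and 1, Uqcrb, for +NFD, against 42.2%, 31.9%, 14.7% and 11.2% of all genes. Complex I was highest in +NFD for 25 of its 41 members and in +ND for 12. Complex III was highest in +ND for 5 of 8, and complex V was divided between +ND (8) and +NFD (7). For +ND the shares of members, 37.5% highest and 29.5% lowest, were near those of all genes.

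DBZ without FGF10 (+ND against +N) divided the members. The median log2 ratio was 0.18, against 0.10 over all genes, and 57 of 88 members were higher in +ND, where 58.1% of all genes were higher. On the scale of FPKM + 1, a value at least 25% higher was found for 30 members (background 31.9%), and one at least 20% lower for 6 (background 20.4%), which became 11 with centred ratios and 10 with upper-quartile scaling. At least 2-fold in either direction were 2 members, Ndufaf4 and Ndufab1, where 10.5% of all genes were. The share of members that were higher thus stood near that of all genes, and fewer of them were at least 20% lower or differed by 2-fold. The complexes had medians of 0.16 (I), 0.15 (II), 0.15 (III), 0.11 (IV) and 0.30 (V).

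Within the complexes the ratios of +ND to +N lay on both sides of zero. In complex V, Atp5c1, the gamma subunit of the rotor, was 126 FPKM in +N and 187 in +ND, and Atp5f1, the stator subunit b, was 120.0 and 172. Atp5e, the epsilon subunit of the same rotor, went the other way, at 416 and 317, a log2 ratio of -0.39. In complex III, 7 of 8 members were higher in +ND (background 58.1%), led by the core protein Uqcrc1, at 124 and 185. In complex II, Sdhd was 80.6 and 115, while Sdhc, with which it forms the membrane anchor, was 89.0 and 77.8. In complex I, 13 of 41 members were up by at least 25%, which is near the background of 31.9%. Down by at least 20% were 3 (background 20.4%), Ndufaf3, Ndufb7 and Ndufv3.

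FGF10 without DBZ (+NF against +N) came with smaller differences. The median log2 ratio of members was 0.09, against 0.11 over all genes, and 63 of 88 were higher (background 65.6%), which became 34 with ratios centred on the median of all genes and 40 with upper-quartile scaling, both with a median just below 0. At least 25% higher were 5 members (background 24.2%), namely Cox6b2, Cox4i2, Atp5s, Ndufaf5 and Sdhd, and 1 was at least 20% lower (background 10.6%), Ndufa4l2. With centred ratios these counts were 3 and 3. In either direction 2 members passed 2-fold, Cox6b2 and Ndufa4l2, where 4.84% of all genes did. Complex medians were 0.08 (I), 0.12 (II), 0.04 (III), 0.03 (IV) and 0.10 (V). In complex V 16 of 17 members were higher in +NF, though by 0.02 to 0.25 on the log2 scale apart from Atp5s at 0.46.

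With both agents (+NFD against +N) nearly all members were higher. The median log2 ratio was 0.22, against 0.18 over all genes, and 81 of 88 were higher, where 69.2% of all genes were. With centred ratios 56 were higher, and with upper-quartile scaling 62. The 7 that were lower were Ndufa4l2, Ndufv3, Uqcrb, Sdha, Atp5e, Ndufaf3 and Ndufb10. Higher by at least 25% were 18 members (background 32.6%) and lower by at least 20% was 1, Ndufa4l2 (background 12.3%), while 2 members, Cox4i2 and Cox6b2, passed 2-fold (background 9.19%). With either centring or upper-quartile scaling, 2 members were at least 25% higher. The differences were thus common but small, with quartiles of the log2 ratio at 0.13 and 0.30. Complex medians lay between 0.17 and 0.25, at 0.23 (I), 0.17 (II), 0.21 (III), 0.17 (IV) and 0.25 (V).

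DBZ on top of FGF10 (+NFD against +NF) gave a median log2 ratio of 0.14, against 0.05 over all genes. Of the 88 members 76 were higher in +NFD, where 57.1% of all genes were, and 38 of the 41 members of complex I were among them. With either centring or upper-quartile scaling, 66 were higher. Only 6 were at least 25% higher (background 15.8%), which were Cox4i2, Uqcrq, Ndufa10, Ndufa4l2, Uqcrc1 and Ndufc1, and 0 were at least 20% lower (background 12.3%). Cox4i2 was the 1 member past 2-fold (background 5.93%). Complex medians were 0.15 (I), 0.07 (II), 0.13 (III), 0.12 (IV) and 0.11 (V). The largest ratio in the other direction was that of Sdha, the flavoprotein that oxidises succinate, at 64.7 FPKM in +NF and 54.7 in +NFD.

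FGF10 on top of DBZ (+NFD against +ND) gave a median log2 ratio of 0.03, against 0.09 over all genes. Here 52 members were higher (background 58.9%; 39 with either centring or upper-quartile scaling, which also turn the median below 0), 15 at least 25% higher (background 27.1%; 8 with centring and 10 with upper-quartile scaling) and 9 at least 20% lower (background 17.0%), and Cox4i2 was the 1 member past 2-fold (background 5.91%). The medians were 0.14 for complex I, 0.0036 for complex II, -0.05 for complex III, 0.03 for complex IV and -0.05 for complex V. These comparisons share libraries, so their values stand side by side and are not independent. The effect of both agents beyond the sum of each, the log2 level in +NFD less +ND less +NF plus +N, had a median of -0.03 over the members and -0.03 over all genes.

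**Figure D2:**
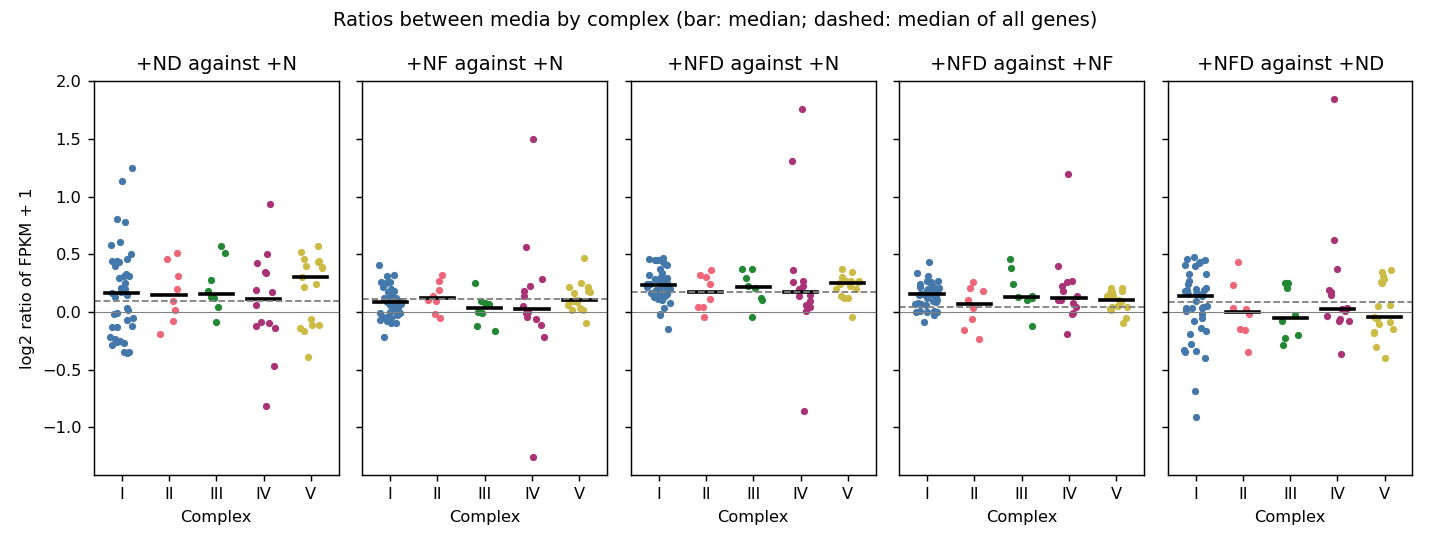
Log2 ratio of FPKM + 1 of each member (points) by complex for the 5 comparisons, with the median of each complex as a bar and the median of all genes as a dashed line. Medians of the complexes lie between -0.05 and 0.30, and few points lie beyond 1 in either direction.

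Core subunits of complex I, which carry the flavin and the iron-sulfur clusters, are given first. Ndufv1, which binds NADH, was 60.5, 66.9, 60.5 and 71.6 FPKM. Ndufv2, its iron-sulfur partner, was 51.0, 67.8, 60.8 and 70.4, and Ndufs1, the largest iron-sulfur subunit, was 38.2, 52.0, 43.4 and 46.2. Both were lowest in +N.

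The other core subunits given here were higher in FPKM than Ndufs1 in every library. Ndufs3 was 75.9, 90.5, 79.6 and 92.6. Ndufs7 was 86.6, 78.8, 85.5 and 107, and Ndufs8 was 53.1, 54.4, 57.9 and 60.9. These 6 core subunits were higher in +NFD than in +N, by log2 ratios of 0.19 to 0.46, and Ndufs7 was the 1 among them that was lower in +ND than in +N.

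Assembly factors of complex I, which build the enzyme but do not remain in it, had a higher median ratio than its subunits in +ND. Their median log2 ratio of +ND to +N was 0.61 over 7 genes, against 0.16 for the 7 core subunits and -0.0053 for the 27 accessory subunits. Ndufaf4 was 4.37, 11.8, 5.07 and 5.79 FPKM. The 95% counting intervals, approximate since the step of a fragment is weak and the longest transcript was assumed, were 3.98 to 4.79 in +N and 11.03 to 12.6 in +ND and cover counting error only. Only +ND was high for this gene.

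Ndufaf5, which hydroxylates Ndufs7 during assembly, was 5.62, 10.6, 7.80 and 7.79, and Ndufaf6 was 3.66, 6.97, 4.26 and 5.29. Ndufaf1, which helps build the membrane arm, was 12.2, 19.1, 14.8 and 16.6, and Ndufaf7, a methyltransferase, was 7.94, 10.2, 9.38 and 10.5. All 4 were lowest in +N. Ndufaf3, the binding partner of Ndufaf4, did not follow it, at 20.2, 15.6, 19.8 and 19.8. In +ND 5 of the 7 factors were at least 25% above +N (background 31.9%), and 4 with centred ratios or upper-quartile scaling. In +NFD 6 of the 7 were (background 32.6%), with a median of 0.41, but 0 of the 7 with centred ratios or upper-quartile scaling.

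These factors are expressed at low levels. Assembly factors of complexes I, III, IV and V whose names fall outside the prefixes were read beside them. Of 31 such genes, 22 had a higher value in +ND (background 58.1%), 7 of them by at least 25% (background 31.9%), and their median log2 ratio was 0.08. Those of complex I, namely Acad9, Nubpl, Ecsit, Foxred1, Timmdc1 and Tmem126b, had ratios from -0.01 (Tmem126b) to 0.26 (Acad9). The 4 assembly factors of complex II among the members had a median of 0.15. Sdhaf3, which serves the iron-sulfur subunit Sdhb, was 2.104, 3.27, 2.74 and 2.35, and Sdhaf1, which has a similar role, was 2.44, 2.66, 2.78 and 3.29.

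The other member that passed 2-fold in +ND was Ndufab1, the mitochondrial acyl carrier protein, which is a subunit of complex I and also serves fatty acid and lipoic acid synthesis. It was 50.2, 111, 60.3 and 68.8 FPKM, and +ND exceeded +N by 1.13 on the log2 scale. As for Ndufaf4, the +ND library alone was high. Of the 50-base stretches of its longest transcript, 12.3% also occur in transcripts of other genes, and the highest FPKM of the gene that shares most of them was 2.56.

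Accessory subunits of complex I otherwise lay in a narrow range. Ndufc1 was 126, 188, 118 and 149, and Ndufa10 was 39.7, 54.3, 40.1 and 54.7, so that both were high in the 2 libraries with DBZ. Ndufb7 was 129, 101, 139 and 139, and Ndufa2 was 168, 138, 175 and 192, both lowest in +ND. Ndufv3 was highest in +N, at 148, 117, 128 and 134.

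Succinate dehydrogenase had few differences. Sdha was 56.5, 53.5, 64.7 and 54.7 FPKM, and Sdhb, the iron-sulfur subunit, was 53.8, 67.2, 57.4 and 66.5. Sdhc was 89.0, 77.8, 87.9 and 105. Its 4 subunits were highest in different libraries, Sdha in +NF, Sdhc in +NFD, and Sdhb and Sdhd in +ND.

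In complex III the core proteins Uqcrc1 and Uqcrc2 differed in the size of their ratios. Uqcrc1 was 124, 185, 123 and 161, with +ND and +NFD high, and Uqcrc2 was 110.2, 134, 116 and 127. Uqcrq, a small subunit at the ubiquinone site, was 174, 179, 155 and 213. Uqcrb, another small subunit, was 247, 281, 261 and 239.7.

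Complex IV held the largest differences between isoforms. Ndufa4l2, a paralog of Ndufa4 known as a gene induced under low oxygen, was 889.6, 504, 372 and 491 FPKM. It was the highest of all 88 members in +N and in no other library, and its +N value stood well above the other 3. Against +N its log2 ratios were -0.82, -1.26 and -0.86 for +ND, +NF and +NFD. Ndufa4, which is now placed in complex IV in spite of its name, was 369, 523, 407 and 406, lowest where its paralog was highest. Ndufa4l2 made up 70.7%, 49.1%, 47.7% and 54.8% of the sum of the pair. The exons of Ndufa4l2 overlap those of Shmt2 on the opposite strand by 32 bases, and Shmt2 stood at 48.0 to 82.6.

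Cox4i2, the isoform of the regulatory subunit Cox4 that is known from lung and from low oxygen, was 2.91, 2.67, 4.77 and 12.2 FPKM. The approximate counting intervals were 2.23 to 3.74 in +N and 1.93 to 3.62 in +ND, which overlap. They were 3.88 to 5.80 in +NF, just above that of +N, and 10.7 to 13.8 in +NFD, which lies apart from the others. Such intervals cover counting error only and cannot separate media, and with an approximate step +N and +NF are not set apart. The log2 ratio of +NFD to +N was 1.75, to +NF 1.19 and to +ND 1.85. Fibroblast markers were also highest in +NFD: 8 of 8 were above +N, with a median log2 ratio of 1.48, and 8 of 8 were above +NF. Their part in the Cox4i2 value was not tested.

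Cox6b2, known as the testis isoform of Cox6b, was 7.72, 15.6, 23.6 and 20.5 FPKM. The log2 ratios to +N were 0.93, 1.497 and 1.30. The approximate counting intervals were 6.44 to 9.17, 13.5 to 18.0, 21.3 to 26.1 and 18.4 to 22.8. That of +N did not overlap the others, which concerns counting error only. The common isoform Cox6b1 was 471, 442, 467 and 503, so Cox6b2 made up 1.61% of the pair in +N and 3.42% to 4.81% in the others.

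In the other isoform pairs 1 gene made up nearly all of the sum. Cox6a1 was 441, 404, 442 and 455 and its muscle counterpart Cox6a2 made up at most 0.0601% of the pair. Cox7a2 was 185, 249, 216 and 238, while Cox7a1, the heart and muscle isoform, was 6.08, 4.10, 6.32 and 6.85, with an approximate interval of 2.97 to 5.52 in +ND that overlaps the 4.85 to 7.52 of +N. Cox7a1 made up 3.18% of the pair in +N, 1.62% in +ND and 2.80% to 2.84% in the others. Cox7a2l, which takes part in joining complexes III and IV into supercomplexes, was 216, 243, 207 and 248. Cox8a was 600.0, 544, 516 and 602, and the subunits Cox5a and Cox5b were 115, 146, 131 and 138 and 150.3, 172, 146 and 175.

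**Figure D3:**
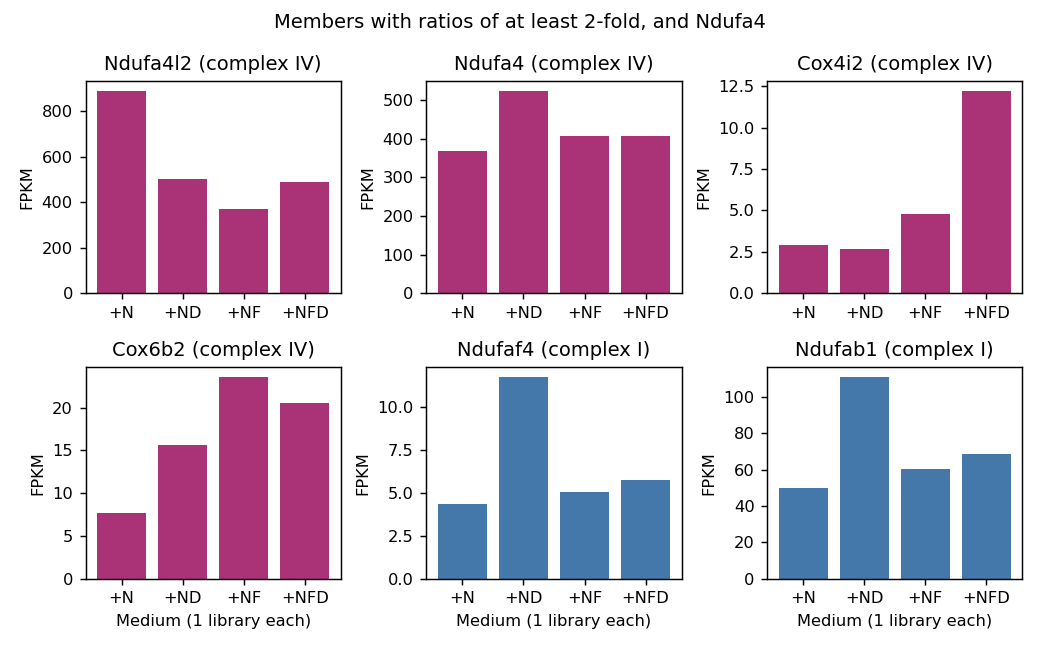
FPKM in the 4 media, 1 library each, of the 5 members that reached a 2-fold ratio in any comparison and of Ndufa4, as bars from 0 with a scale of its own in each panel. Ndufa4l2 is highest in +N, Cox4i2 in +NFD, Cox6b2 is lowest in +N, and Ndufaf4 and Ndufab1 are highest in +ND.

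In complex V 3 of the 5 genes of the catalytic F1 part were lowest in +N. Atp5a1, the alpha subunit, was 302, 396, 343 and 384, Atp5b was 444, 601, 473 and 533, and Atp5c1 was 126, 187, 150.0 and 152. Atp5d, the delta subunit, was 239, 217, 242 and 279 and Atp5e was 416, 317, 389 and 404, both lowest in +ND. The c-ring, through which protons pass, is encoded by 3 genes that give the same mature protein. Atp5g3 was 357, 487, 415 and 428, Atp5g2 was 263, 305, 274 and 316, and Atp5g1 was 172, 153, 177 and 188. Atp5g3 was the highest in each library, and its share of the summed c-ring RNA was 45.1%, 51.5%, 48.0% and 45.9%, while that of Atp5g1 was 21.8%, 16.2%, 20.4% and 20.1%. The +ND library had the largest share of Atp5g3 and the smallest of Atp5g1.

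Promoter sequence was examined because NRF1 and the ETS factor GABP are known regulators of these genes. RefSeq windows on GRCm38.p6, from 250 bases before the start to 50 after it, were matched by symbol for 72 of the 88 members; Ndufa4l2 and Cox4i2 were not among them. Both strands were searched for the NRF1 letters GCGCATGCG and the ETS letters CCGGAAG. The NRF1 letters nearly read the same on both strands, so a site can match on each. A window with any match was counted as 1 window. The NRF1 letters were present in 10 of 72 member windows (13.9%), in 3.88% of 9365 windows of genes with a mean FPKM of at least 1 and in 2.31% of all 18684 windows. The ETS letters were present in 19 member windows (26.4%), against 18.9% and 11.3%. By complex, the NRF1 letters were found in 4 of 36 windows of complex I, 0 of 7 of complex II, 2 of 5 of complex III, 1 of 11 of complex IV and 3 of 13 of complex V, and the ETS letters in 5 of 36, 5 of 7, 2 of 5, 3 of 11 and 4 of 13. The share of complex I with the ETS letters, 13.9%, was below that of genes with a mean FPKM of at least 1.

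The windows of members with a 2-fold ratio are shown first, and then 1 window with the NRF1 letters for each complex that has them. That of Ndufaf5 was added by choice and not by this rule. Sequences run 5′ to 3′ on the strand of the gene, on GRCm38.p6, and capitals mark matches to the NRF1 or ETS letters on either strand.
Ndufaf4 (chr4:24897833-24898132, plus strand): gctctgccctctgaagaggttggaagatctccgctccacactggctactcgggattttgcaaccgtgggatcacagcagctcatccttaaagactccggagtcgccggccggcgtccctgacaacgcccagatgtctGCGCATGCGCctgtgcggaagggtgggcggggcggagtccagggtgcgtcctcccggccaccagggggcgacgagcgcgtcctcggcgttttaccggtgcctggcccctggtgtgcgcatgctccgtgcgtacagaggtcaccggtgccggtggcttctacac
Ndufab1 (chr7:122101799-122102098, minus strand): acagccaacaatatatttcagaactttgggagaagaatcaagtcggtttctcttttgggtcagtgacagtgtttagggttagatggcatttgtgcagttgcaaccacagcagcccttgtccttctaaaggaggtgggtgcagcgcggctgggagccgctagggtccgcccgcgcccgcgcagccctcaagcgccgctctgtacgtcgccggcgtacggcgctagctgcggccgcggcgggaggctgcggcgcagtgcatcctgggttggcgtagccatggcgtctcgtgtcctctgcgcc
Cox6b2 (chr7:4753045-4753344, minus strand): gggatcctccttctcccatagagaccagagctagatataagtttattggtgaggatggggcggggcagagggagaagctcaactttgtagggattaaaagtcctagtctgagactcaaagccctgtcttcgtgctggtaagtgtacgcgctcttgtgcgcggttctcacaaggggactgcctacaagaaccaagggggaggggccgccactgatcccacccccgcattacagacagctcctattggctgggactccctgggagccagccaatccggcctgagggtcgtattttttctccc
Ndufaf5 (chr2:140170396-140170695, plus strand): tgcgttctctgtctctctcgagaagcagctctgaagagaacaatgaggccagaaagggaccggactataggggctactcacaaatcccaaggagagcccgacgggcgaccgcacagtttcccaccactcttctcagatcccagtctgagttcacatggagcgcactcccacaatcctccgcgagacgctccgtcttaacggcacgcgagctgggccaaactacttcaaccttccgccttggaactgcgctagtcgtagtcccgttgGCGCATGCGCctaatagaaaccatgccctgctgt
Ndufa8 (chr2:36049289-36049588, minus strand): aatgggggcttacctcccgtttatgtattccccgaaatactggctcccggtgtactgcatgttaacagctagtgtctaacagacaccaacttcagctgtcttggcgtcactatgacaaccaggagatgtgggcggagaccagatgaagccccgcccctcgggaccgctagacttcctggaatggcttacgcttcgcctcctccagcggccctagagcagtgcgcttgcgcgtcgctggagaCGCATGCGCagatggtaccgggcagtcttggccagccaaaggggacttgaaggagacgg
Uqcr11 (chr10:80406772-80407071, minus strand): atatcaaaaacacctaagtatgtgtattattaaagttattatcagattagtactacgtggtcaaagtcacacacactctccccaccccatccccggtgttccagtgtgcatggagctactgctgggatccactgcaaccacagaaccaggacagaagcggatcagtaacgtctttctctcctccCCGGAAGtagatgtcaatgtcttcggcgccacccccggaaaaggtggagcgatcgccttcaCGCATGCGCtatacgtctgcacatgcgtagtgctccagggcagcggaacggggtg
Cox6a1 (chr5:115348909-115349208, minus strand): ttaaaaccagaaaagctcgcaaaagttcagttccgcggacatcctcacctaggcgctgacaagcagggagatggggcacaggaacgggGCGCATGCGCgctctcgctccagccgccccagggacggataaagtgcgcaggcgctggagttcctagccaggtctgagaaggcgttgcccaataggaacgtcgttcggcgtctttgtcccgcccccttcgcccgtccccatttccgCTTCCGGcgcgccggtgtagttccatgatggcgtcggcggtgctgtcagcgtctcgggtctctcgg
Atp5l (chr9:44920693-44920992, minus strand): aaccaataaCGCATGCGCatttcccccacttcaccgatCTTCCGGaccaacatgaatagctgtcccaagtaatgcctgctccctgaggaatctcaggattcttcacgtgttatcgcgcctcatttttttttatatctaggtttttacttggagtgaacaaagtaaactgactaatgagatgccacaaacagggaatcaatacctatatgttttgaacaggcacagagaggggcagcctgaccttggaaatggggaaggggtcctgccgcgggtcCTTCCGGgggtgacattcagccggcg
Ndufaf4 and Ndufaf5, both high in +ND, hold the NRF1 letters, and the windows of Ndufab1 and Cox6b2 hold neither motif. The window of Ndufaf1, also high in +ND, holds the ETS letters but not the NRF1 letters, and Ndufaf6 had no window. A match describes the letters in this window only. Comparing +ND with +N, 5 of the 10 members with the NRF1 letters were higher (median log2 ratio 0.07), as were 41 of the 62 without them (median 0.18). The share of all genes was 58.1%. In +NFD all 10 were above +N, as were 57 of the 62, against 69.2% of all genes. With centred ratios only 56 of all 88 members were higher in +NFD. The gene Nrf1 itself was 15.3, 16.4, 18.2 and 18.6 FPKM, and Gabpa, which encodes the DNA-binding subunit of GABP, was 17.1, 25.7, 17.4 and 18.4; an exon of Gabpa overlaps one of Atp5j on the opposite strand.

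The ratios moved with the base composition of the transcripts in several comparisons, most in those that involve +ND. Between the GC content of the longest annotated transcript and the log2 ratio of +ND to +N, Spearman's rho was -0.48 and Pearson's r -0.47 across the 88 members. The same rho over 12841 genes was -0.30. For +NFD against +ND, rho was 0.56 over the members and 0.48 over all genes. Genes of 1 library pair share its preparation and depth, so these are descriptions across genes. For +ND against +N, the median log2 ratio was 0.31 for the 44 members below the median GC content of 49.9% and -0.01 for the 44 above it. All genes split at the same GC content gave 0.24 and -0.04. Comparisons without +ND had smaller values over the members: for +NF against +N rho was -0.33 for members and -0.14 for all genes, for +NFD against +NF 0.32 and 0.30, and for +NFD against +N -0.06 and 0.11. The part of base composition in the values of Ndufaf4, Ndufab1 and the other members high in +ND was not tested.

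**Figure D4:**
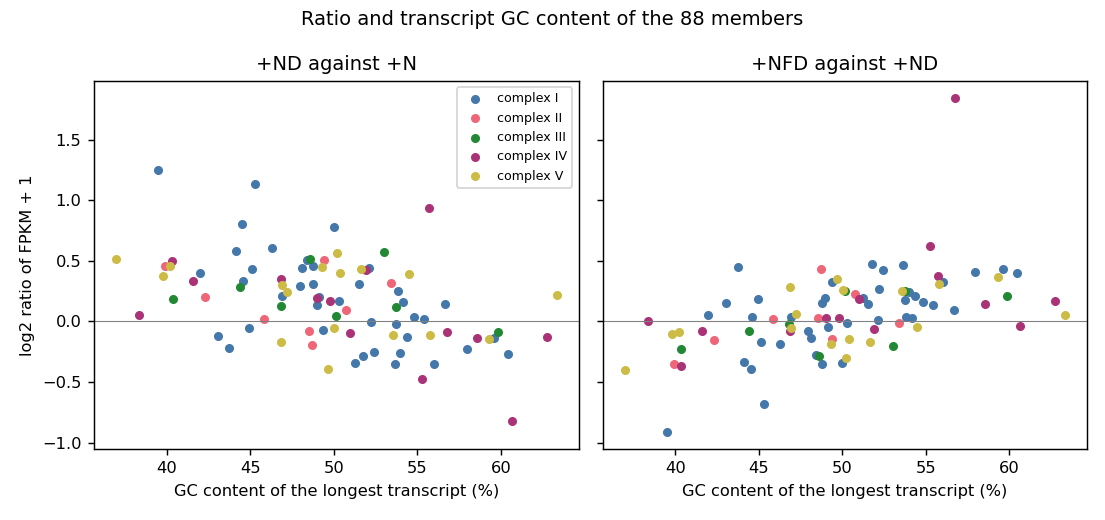
Log2 ratio of FPKM + 1 against the GC content of the longest annotated transcript in percent for the 88 members, for +ND against +N and for +NFD against +ND, coloured by complex. Members of low GC content tend to lie above 0 in the first panel, where rho is -0.48, and below 0 in the second, where rho is 0.56.

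Other genes of mitochondrial energy metabolism were read from lists. Cycs, which encodes cytochrome c, the carrier between complexes III and IV, was 26.9, 49.1, 27.9 and 33.0 FPKM, high in +ND alone. Cyc1, the haem-bearing cytochrome of complex III whose name falls outside the prefixes, was 116, 151, 117 and 143. The 3 X-linked subunits Cox7b, Ndufa1 and Ndufb11 all lay above +N in +NFD (69.2% of all genes), at a median log2 ratio of 0.28. In +ND 2 of the 3 did (58.1% of all genes), at a median of 0.0082. Cox7b was 122, 158, 152 and 165, Ndufa1 was 198, 199.2, 266 and 240.5, and Ndufb11 was 141, 119, 139 and 159.6.

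Of 13 tricarboxylic acid cycle genes, 12 stood above +N in +ND (58.1% of all genes), 8 of them by at least 25% (31.9% of all genes), and the median log2 ratio was 0.41. Idh3a, the catalytic subunit of the NAD-dependent isocitrate dehydrogenase, was 35.7, 70.2, 51.0 and 53.7, and Cs, citrate synthase, was 81.0, 111, 84.3 and 101. All 13 were higher in +NFD than in +N (69.2% of all genes), with a median of 0.31. Of 77 mitochondrial ribosomal protein genes, 60 were higher in +ND and 70 in +NFD than in +N, with medians of 0.23 and 0.29, where 58.1% and 69.2% of all genes were higher. Of 85 cytosolic ribosomal protein genes at a mean FPKM of at least 1, 79 and 82 were, both with a median of 0.33. The median over all genes was 0.10 in +ND and 0.18 in +NFD.

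Among 11 regulators of mitochondrial biogenesis, 9 reached a mean FPKM of 1, and Ppargc1a and Ppargc1b, the coactivators best known for this role in muscle and fat, stayed at or below 0.65 FPKM. Tfam, which packages and transcribes mitochondrial DNA, was 23.3, 28.0, 31.2 and 30.7. Pprc1, a related coactivator, was 8.92, 12.7, 11.8 and 14.4, lowest in +N. In +ND 8 of the 9 stood above +N (median log2 ratio 0.35, background 58.1%), and so did 8 of the 9 in +NFD (median 0.21, background 69.2%).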

How the data were processed

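RNA of DEOs in 4 media was analysed, 1 library each, grouped by the labels. Per the methods and labels, TruSeq libraries were sequenced, reads were quality-checked (FastQC 0.11.9), trimmed (Trim Galore 0.6.5) and mapped to GRCm38 (TopHat 2.1.1), and the authors deposited FPKM from Cufflinks 2.2.1. The annotation release, strand setting and Cufflinks options are not given in the sources used here, so fragments of overlapping genes (32 members have an exon overlap) and of similar sequences (13 members share at least 10% of their 50-base stretches) can be split between genes. A longest transcript below 1000 nt was found for 36 members. Entries with the same symbol were summed, and the background is all 12875 symbols with a mean FPKM of at least 1. Counts use any higher value, 25% higher or 20% lower, or 2-fold, the fold threshold of the paper. Transcript lengths and GC content came from GENCODE release M21.

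The members and lists were chosen with earlier results of these data known. Any member could be named. Values in every library are given for core subunits, isoforms, members past 2-fold, and those with the 3 highest or lowest ratios at a mean FPKM of at least 5. Ndufa4, Ndufa4l2 and Cox7a2l were placed in complex IV. Depth was not stated; the step of 1 fragment was taken from genes with 1 annotated transcript of at least 1000 nt and is approximate. In simulated data for +ND against +N over 12875 genes, 200 of 200 genes with a 4-fold difference were recovered at a 2-fold limit and 0 others were called. The simulation set levels to at least 5 FPKM and used equal depth and counting error only. It therefore checked the computation and cannot tell how reliable the small ratios of the members are. Alternatives covered the pseudocount, the filter, scaling, entries, length and membership. Computations used Python 3.11.15 with pandas 2.3.3, numpy 2.4.6, scipy 1.17.1, and for plots matplotlib 3.10.9.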

Additional observations from a re-analysis of the deposited data

Results flagged for a closer look

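For 2 members, Ndufa4l2 and Ndufaf5, the ratio was at least 25% higher in 1 setting and at least 20% lower in the other. Other members also differed in sign between settings, but did not pass these limits in both. An example is Ndufab1 for FGF10, at 0.26 in +NF against +N and -0.69 in +NFD against +ND. The median of all genes for +NF against +N was 0.11, and centring on it takes Ndufaf5 below the 25% limit there. Adding DBZ came with a lower Ndufa4l2 without FGF10, at a log2 ratio of -0.82 in +ND against +N, and with a higher Ndufa4l2 in its presence, at 0.40 in +NFD against +NF. Adding FGF10 came with a higher Ndufaf5 without DBZ, at 0.41 in +NF against +N, and with a lower Ndufaf5 in its presence, at -0.39 in +NFD against +ND. With 1 library per medium, neither difference was tested, and the 2 values of each gene share no library but rest on 4 single libraries.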

How the results depend on the processing

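Of 581 recomputed values, 526 were counts within 1.5 times the reported one or medians that kept their sign and moved by under 25% as folds, a wide limit for medians this near 0 (that of complex IV for +ND against +N was 0.11 as reported and 0.0152 centred), and these include all values with X-linked subunits added, with the highest entry for each symbol, and with Ndufa4 and Ndufa4l2 counted in complex I, an alternative chosen after seeing the data. The median over all members stayed between 0.08 and 0.31 (log2) for +ND against +N, between 0.05 and 0.25 for +NFD against +N and between 0.08 and 0.15 for +NFD against +NF. For +NF against +N and for +NFD against +ND the medians are near 0 and their sign depends on the scaling. With upper-quartile scaling the +NF against +N medians were -0.0103 for all members, -0.0189 (I), -0.0652 (III) and -0.0696 (IV) with 40 members higher, the +NFD against +ND medians were -0.0376 for all, -0.0667 (II) and -0.042 (IV), 2 members were at least 25% higher in +NFD than in +N, 10 were at least 20% lower in +ND than in +N, and 0 complex I assembly factors were at least 25% higher in +NFD than in +N, as with centred ratios; the alternatives for that count were also chosen after seeing the data. With ratios centred on the median of all genes, the +NF against +N medians were -0.0228 for all, -0.032 (I), -0.0778 (III), -0.0888 (IV) and -0.0139 (V), with 34 members higher, 3 of them by 25%, and 3 lower by 20%; the +NFD against +N medians were -0.0008 (II) and -0.0013 (IV), with 2 higher by 25% and 2 lower by 20%; the +NFD against +ND medians were -0.0549 for all, -0.0852 (II) and -0.0591 (IV), with 8 members at least 25% higher and 2 past 2-fold; and 11 were at least 20% lower in +ND than in +N. These shifts come from the median of all genes itself, which is 0.05 to 0.18 above 0. A pseudocount of 0.1 or none gave 2 members past 2-fold in +NFD against +ND, a mean FPKM of at least 5 gave a complex V median of 0.0021 there, and no filter gave a complex IV median of 0 in +NF against +N. Fewer members by construction lowered several counts. Structural subunits only gave 1 member past 2-fold in +ND and 1 in +NF against +N, 3 higher by 25% and 0 lower by 20% in +NF, 11 and 0 in +NFD against +N, and 5 lower by 20% in +NFD against +ND. The 52 members with a transcript of at least 1000 nt gave 40 higher, 3 by 25%, 0 lower by 20% and 0 past 2-fold in +NF against +N, 48 higher, 0 lower by 20% and 0 past 2-fold in +NFD against +N, 45 higher and 0 past 2-fold in +NFD against +NF, and 27 higher, 7 by 25%, 0 past 2-fold and medians of -0.0144 (II) and -0.0796 (IV) in +NFD against +ND.

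No paired analysis was possible because each medium has 1 library and no result comes from a test. Depth was lowest in +ND, and of the 88 members 86 had an estimated 100 fragments or more in each library, while Cox4i2 and Cox7a1 had as few as 42 and 43; nothing in these data measures the spread between cultures.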
